A study of Sinonovacula constricta with 18 samples.

Results

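The 150 isoform clusters described here were the ones whose RNA was most concentrated in the intestine of the razor clam Sinonovacula constricta, out of 32250 clusters measured in 6 tissues. They were chosen by their own measured levels, in FPKM (the number of read fragments of a cluster per unit of its length and of library size). A cluster was kept when its lowest intestine library reached at least 1 FPKM and lay above all 15 libraries of the other tissues, and when its intestine mean was at least 4 times the highest mean of any other tissue, with 0.1 FPKM added to both means. Of all clusters, 271 (0.840%) met these conditions, and the 150 with the highest ratio (0.465%) were taken. Since the selection used the contrast between the intestine and the other tissues, that contrast is described without a test. The intestine was set against the siphon, gill, labial palp, mantle and foot muscle of healthy adult clams, with 3 libraries per tissue, each from a mixture of 3 individuals. No treatment, strain, sex or age class other than adult was given for any tissue.

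An isoform cluster is taken here to be a transcript sequence assembled from long reads, to which the reads of each tissue library were assigned. This reading was inferred from the identifiers and the values, since the sources name instruments of both long and short reads. The identifiers printed here leave out a middle part that all clusters share. The last whole number of an identifier is the length of the long-read cluster, and a suffix after a point numbers a piece of it. No gene name or sequence was paired with a cluster in the sources used here, so no function is given for any of them, and the labelled tissues were not checked against marker genes.

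In a bivalve, water drawn in through the siphon is filtered by the gill, the labial palps sort the captured particles and pass food to the mouth, and the gut digests and absorbs it. The intestinal wall is an epithelium of absorptive and secretory cells, and transcripts confined to a gut commonly encode secreted enzymes, mucus proteins or transporters. The mantle secretes the shell, and the foot is a muscular digging organ. In bulk tissue of this kind, a lower level can come from fewer cells of a type or from less RNA per cell, and these cannot be told apart.

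Estimated read counts summed to between 9982441 and 17970120 per library, and were lowest in the intestine, where they lay between 9982441 and 10505352. No pair of libraries shared more than 0.184% of identical FPKM values, so all 18 were treated as separate samples. Whether the pools of different tissues came from the same clams was not stated, and p-values given here measure the spread between pools. Deviations from the tissue means correlated at 0.247 to 0.819 in 30 same-numbered pairs without the mantle. Among libraries of the third number, the labial palp followed the intestine at 0.760. Both followed the siphon, gill and foot muscle of that number at 0.309 or less. In 15 pairs with a mantle library the correlation was at most 0.0419. The main tests among tissues did not use the numbers as a pairing and treated the libraries as separate. Same-numbered libraries without the mantle were thus not independent, and the variation they shared was left in the spread of these tests.

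The leading 3 clusters stood above all others in both level and ratio: i1_c284029/3/1727.1, i4_c438/1/4859.3 and i1_c14151/1/1582.1. The first was measured at 8732, 7119 and 6437 FPKM in the 3 intestine libraries, against 6.90, 3.73 and 5.44 FPKM in the mantle. Its other 12 libraries lay between 0 and 1.96 FPKM. The mantle libraries were therefore the highest outside the intestine, and the intestine mean of 7429 ± 1179 FPKM (SD, n = 3) was 1361 times the mantle mean after the addition of 0.1. The second, i4_c438/1/4859.3, was measured at 5822, 3904 and 9280 FPKM in the intestine, against 8.49, 4.41 and 8.25 FPKM in the mantle. The third, i1_c14151/1/1582.1, was measured at 10524, 5468 and 5694 FPKM in the intestine, against 8.50, 6.39 and 10.1 FPKM in the mantle. Their ratios were 886 and 858. All 3 clusters shared a further detail outside the intestine, a level above 0 in the first foot muscle library (1.96, 4.03 and 6.95 FPKM) beside 0 in the other two foot muscle libraries. Both i4_c438/1/4859.3 and i1_c14151/1/1582.1 were also at 0 in all 3 labial palp libraries.

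These 3 clusters ranked 2, 4 and 3 among all 32250 clusters by mean intestine FPKM. Together they took 1.61%, 1.17% and 1.29% of the reads of the intestine libraries, against at most 0.00141% in any other library, which was a mantle library. The effective length (the number of positions at which a fragment can start, recovered from the counts and FPKM) was 1127 bases for i1_c284029/3/1727.1, but 367 for i4_c438/1/4859.3 and 395 for i1_c14151/1/1582.1.

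The next 7 clusters by ratio were expressed at intestine levels lower by an order of magnitude or more, and their ratios came from levels near 0 elsewhere. The fourth, i2_c36716/1/2467.1, was measured at 329.7, 376.8 and 598.3 FPKM in the intestine. Outside it the cluster was at 0 in 11 of 15 libraries, and its highest value was 2.16 FPKM in 1 gill library. Its ratio was 502. The fifth, i2_c13270/3/2181.3.1, was measured at 136.7, 121.1 and 318.3 FPKM in the intestine and at 2.37 FPKM in 1 labial palp library, its highest value elsewhere, with a ratio of 216. The sixth, i3_c22038/1/3453.1, had the lowest level of the 10 in the intestine, at 46.7, 73.9 and 62.9 FPKM. Elsewhere it never passed 0.38 FPKM, and only 5.40 estimated reads over the 3 gill libraries stood behind its second tissue, so its ratio of 189 was the one of the 10 that moved most with the constant added.

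The remaining clusters of the first 10 had ratios between 93.2 and 114. Cluster i1_c99538/1/1714 was measured at 53.6, 65.3 and 105.5 FPKM in the intestine and at no more than 1.19 FPKM elsewhere. Cluster i3_c6483/2/3581.1 was measured at 100.5, 98.9 and 263.8 FPKM in the intestine, against 1.50, 1.94 and 0.38 FPKM in the siphon, and at 0 in all gill libraries. Cluster i2_c40597/2/2803.1.1 differed from the other nine in being above 0 in all 18 libraries. It was measured at 306.0, 265.2 and 496.6 FPKM in the intestine, against 3.07, 2.92 and 3.23 FPKM in the gill, and between 0.22 and 3.73 FPKM in the other 12 libraries. Cluster i1_c165288/1/1920.1 was measured at 122.8, 120.2 and 208.8 FPKM in the intestine, against 0, 2.90 and 1.65 FPKM in the gill.

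**Figure D1:**
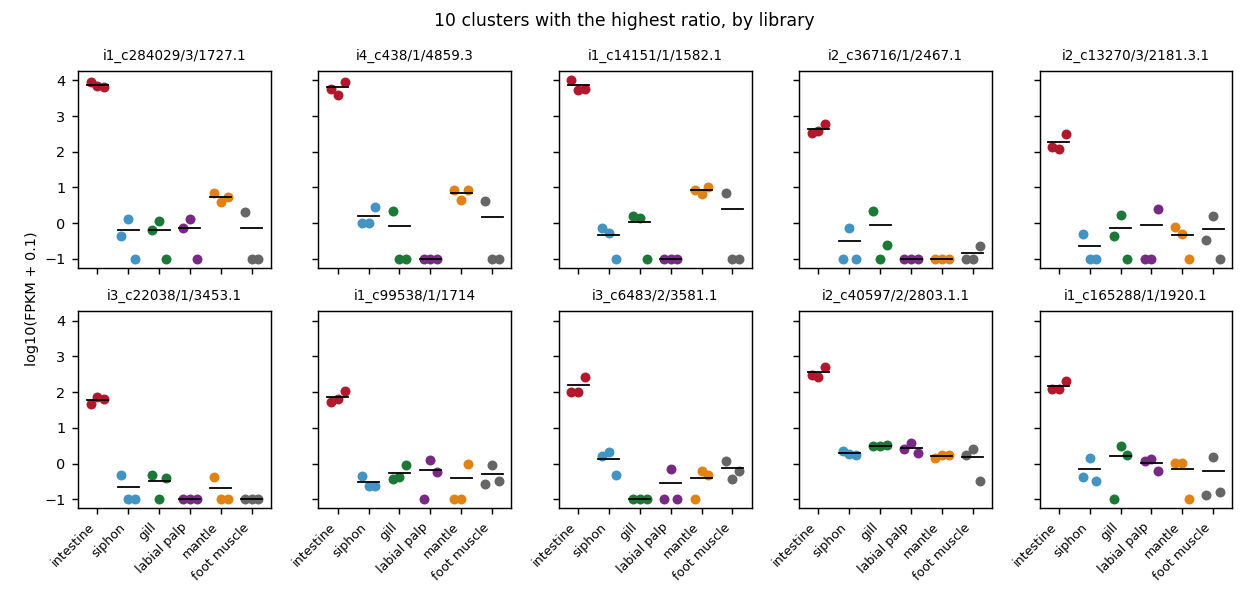
FPKM of the 10 clusters with the highest ratio, as log10(FPKM + 0.1), with 1 point per library, 6 tissues from left to right starting with the intestine, and a black line at each tissue mean. The 3 intestine points of every cluster lie above all 15 others, the first 3 clusters lie between 3904 and 10524 FPKM in the intestine, and points at -1 are libraries at 0.

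The lists of the 10 most abundant clusters and of the 10 highest ratios overlapped in part. Ranked by mean intestine FPKM, the 10 most abundant included the first 3 of the 10 highest ratios, and these were also the 3 most abundant. Whether abundance and ratio were related over the 150 clusters was not tested, and the clusters had been chosen by ratio. The fourth most abundant, i2_c9857/1/2092.1, was measured at 2016, 2226 and 1351 FPKM in the intestine, against 245.9, 333.1 and 185.5 FPKM in the labial palp. It was also between 142.2 and 213.3 FPKM in the mantle, and lowest in the foot muscle at 12.8 to 34.3 FPKM. With a ratio of 7.31 and rank 142 it was among the last to be taken, although its lowest intestine library was 4.06 times the highest library elsewhere. Cluster i4_c73/6/4954, which had the longest effective length recovered, 4671 bases, was measured at 508.5, 978.3 and 1363 FPKM in the intestine, against 73.4, 126.5 and 134.6 FPKM in the labial palp. Its mantle libraries lay between 43.2 and 113.9 FPKM, overlapping the labial palp, and its ratio was 8.51.

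Cluster i1_c178292/2/1175 was measured at 868.6, 1722 and 570.2 FPKM in the intestine, against 31.6, 74.1 and 55.5 FPKM in the foot muscle. Cluster i1_c51688/1/1191 was measured at 625.0, 774.7 and 593.7 FPKM in the intestine, against 110.5, 44.2 and 59.1 FPKM in the mantle and 44.9, 73.6 and 92.2 FPKM in the siphon, which overlapped the mantle. Cluster i1_c123406/1/1986.2 combined abundance with a high ratio of 75.8. It was measured at 559.6, 452.5 and 1104 FPKM in the intestine, against 2.87, 8.18 and 16.6 FPKM in the mantle. In 1 of the 10 the mean rested on a single library, since i2_c44629/1/2125 was measured at 1619 FPKM in the second intestine library beside 206.7 and 188.7 FPKM in the other two. The last, i2_c59060/1/2137, was measured at 401.8, 987.6 and 546.9 FPKM in the intestine and between 8.98 and 46.8 FPKM in every other library.

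Over all 150 clusters the mean intestine level lay between 4.03 and 7429 FPKM with a median of 69.1 FPKM. It reached 100 FPKM in 56 clusters and 1000 FPKM in 5, and was under 10 FPKM in 5. The highest mean among the other tissues lay between 0.223 and 255 FPKM with a median of 4.44 FPKM. The ratio had a median of 14.2, with 109 clusters at 10 or more, 53 at 20 or more, 20 at 50 or more and 9 at 100 or more. At the end of the list, the last 2 clusters taken were i2_c79988/1/2148 with a ratio of 6.74 and i3_c22101/1/3483.2 with 6.69, and the first 2 left out were i2_c9890/1/2063.2 with 6.49 and i1_c214748/1/1919.1 with 6.36, so the list ended without a gap in the values. In single libraries the separation was narrower than in means. The lowest intestine library was between 1.25 and 933 times the highest library of any other tissue, with a median of 6.30, and it was less than 2 times that library in 10 clusters.

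**Figure D2:**
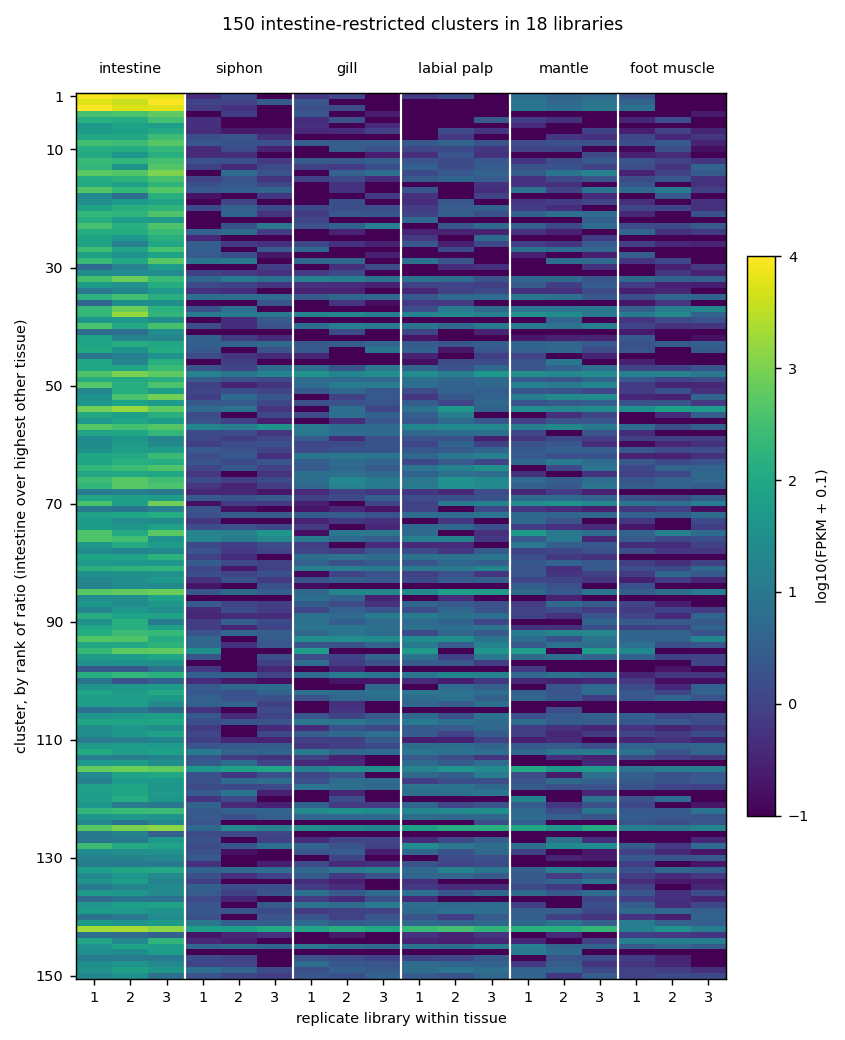
Log10(FPKM + 0.1) of the 150 clusters (rows, ordered by ratio with rank 1 at the top) in 18 libraries (columns, 3 per tissue with the intestine at the left). The intestine columns are the brightest of every row, and no row is at 0 (darkest colour) in all 15 other libraries.

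The clusters made up 3.99%, 4.19% and 4.49% of the estimated reads of the intestine libraries. In the other libraries they made up 0.135% to 0.169% of reads in the labial palp, 0.0971% to 0.144% in the mantle, 0.0792% to 0.0842% in the gill, 0.0573% to 0.0703% in the siphon and 0.0449% to 0.0458% in the foot muscle. In this order the ranges of the labial palp and the mantle overlapped. By share of total reads the foot muscle lay below all other tissues. The edgeR tests described below used TMM normalization, and the order of the tissues was not computed on that scale. For i2_c86666/1/2735.1 and i2_c86666/1/2735.2, described below, the labial palp was above the foot muscle in mean FPKM. In edgeR the foot muscle had the larger difference for both. By number of clusters at 1 FPKM or more, 95 to 99 of 150 were counted in the labial palp libraries, 84 to 89 in the mantle, 83 to 86 in the gill, 71 to 96 in the siphon and 58 to 76 in the foot muscle.

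**Figure D3:**
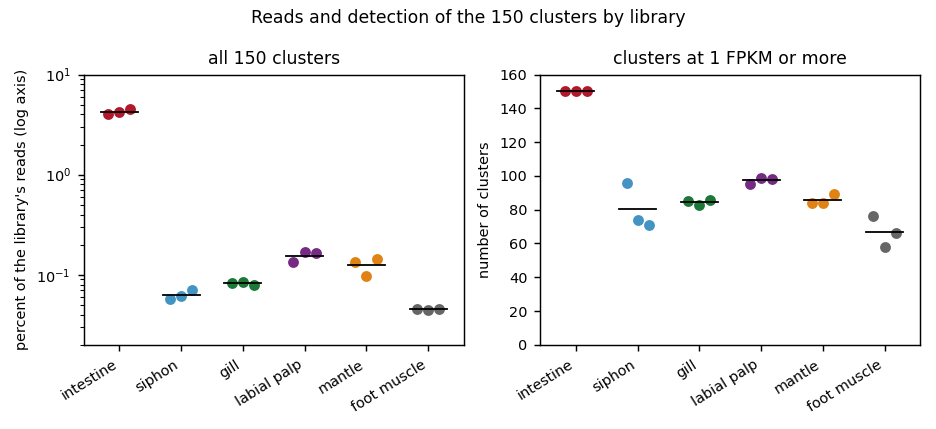
Left, percent of each library's estimated reads that fell on the 150 clusters (log axis), and right, the number of the 150 at 1 FPKM or more, with 1 point per library and a black line at the tissue mean. The intestine libraries lie at 3.99% to 4.49% of reads, and the other 15 libraries between 0.0449% and 0.169%.

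By estimated reads, restriction was a matter of level more than of complete absence. Low values rest on reads shared out by estimation, down to 11.3 over the 15 libraries, so true absence was not tested. No cluster was at 0 in all 15 libraries outside the intestine, and 62 were above 0 in every one of them. A whole tissue at 0 in its 3 libraries was found for 15 clusters in the foot muscle, 13 in the labial palp, 10 in the gill, 8 in the mantle and 4 in the siphon. By tissue means, 20 clusters stayed under 1 FPKM in all 5 other tissues and 51 reached 1 FPKM in all of them. Among the 24206 clusters with an intestine mean of at least 1 FPKM, 76.2% reached it in all 5 others and 1.03% in none, a contrast that the rule itself favoured.

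The second tissue, that is the one with the highest mean after the intestine, was the labial palp for 61 clusters (40.7%), the gill for 29 (19.3%), the mantle for 29 (19.3%), the siphon for 21 (14.0%) and the foot muscle for 10 (6.67%). Of the 24206 clusters with an intestine mean of at least 1 FPKM, the highest of the same 5 tissues was the labial palp in 40.0%, the gill in 28.8%, the mantle in 18.9%, the siphon in 6.21% and the foot muscle in 6.07%. The siphon was thus second more often, and the gill less often, among the 150 clusters than in this background, and the other 3 tissues were close to it. This was a comparison of counts without a test, and the rule had used the highest of the 5 means. The ratios compared next are the values by which the clusters were chosen, so they are a description only. The clusters with the siphon second had the highest median ratio, 24.7, and a median siphon mean of 1.66 FPKM. The clusters with the mantle second had the highest median intestine level, 154.0 FPKM, and a median ratio of 15.1. Those with the labial palp second had a median ratio of 11.9, and those with the foot muscle second 10.9.

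Whether the clusters also differed among the 5 other tissues was tested on the 15 libraries outside the intestine, using a quasi-likelihood test in edgeR over all 29787 clusters with at least 10 reads and Benjamini-Hochberg adjustment. All 150 clusters entered this test. The rule had used the highest of the 5 means, so the test is not fully independent of the choice. An adjusted p under 0.05 (a call) was found for 33 of the 150 (22%), against 17.6% of all clusters tested, which is near this background. Leaving out the third gill library lowered the count to 21 (14%, against 14.7% of all clusters). Each tissue was then set against the mean of the other 4. With TMM normalization in this test, a tissue called higher need not be the one with the highest mean FPKM. Higher calls were made for 11 of the 150 clusters in the labial palp (5.71% of all clusters tested), 9 in the mantle (3.08%), 8 in the siphon (4.85%), 8 in the foot muscle (7.21%) and 5 in the gill (4.88%). These are shares of 7.33% of the 150 in the labial palp, 6% in the mantle, 5.33% in the siphon, 5.33% in the foot muscle and 3.33% in the gill, of which only the mantle share was nearly 2 times its background. With the second mantle library left out the mantle count was 3 (2%, against 1.36%). In all, 32 clusters (21.3%) were called higher in at least 1 tissue, against 18.9% of all clusters tested, and 9 of these (6%) in 2 tissues, against 6.57% in 2 or more, so both shares were near the background. Adding replicate number to the fit gave 18 calls in the labial palp (12%, against 7.33%) and 15 in the mantle (10%, against 5.64%). The gill count was then 10 (6.67%, against 6.48%). For the foot muscle and siphon it was 9 (6%, against 8.72%) and 8 (5.33%, against 5.9%).

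The call with the smallest adjusted p of any single tissue belonged to i2_c20747/1/2589.2, with the foot muscle second. It was measured at 15.4, 13.3 and 13.4 FPKM in the foot muscle, against at most 0.78 FPKM in the other 12 libraries outside the intestine. Its intestine libraries, at 85.2, 21.8 and 189.5 FPKM, were above the foot muscle but varied far more. The foot muscle was 7.67 log2 units above the mean of the other 4 tissues (SE 0.73, edgeR adjusted p = 0.000105). Its companion piece i2_c20747/1/2589.1, not among the 150, was also highest in the intestine and second in the foot muscle. It was measured at 108.2, 58.6 and 19.2 FPKM in the intestine, against 31.9, 26.9 and 21.6 FPKM in the foot muscle, so that the groups overlapped.

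A mantle level above the other tissues was called most firmly for i3_c13803/5/3062.1, which had the smallest adjusted p among the 5 tissues of all 150 clusters (edgeR adjusted p = 0.000259). It was measured at 15.8, 10.8 and 19.98 FPKM in the mantle and at 5.46, 12.3 and 13.1 FPKM in the gill, against 0.20 to 0.86 FPKM in the siphon and foot muscle. The mantle was 3.09 log2 units above the mean of the other 4 (SE 0.35, edgeR adjusted p = 0.000746) and the gill 1.89 units (SE 0.37, adjusted p = 0.00770, up to 0.0602 under the least favourable alternative). Cluster i2_c8798/1/2094 had the same order, with 10.6, 7.55 and 14.96 FPKM in the mantle against 0.36 to 1.67 FPKM in the siphon and foot muscle. Its mantle difference was 1.98 log2 units (SE 0.37, edgeR adjusted p = 0.0120), and the adjusted p was 0.0589 without the third mantle library. Both clusters were lowest of the 3 intestine libraries in the second, at 136.5 FPKM for i3_c13803/5/3062.1 and 108.3 FPKM for i2_c8798/1/2094, beside 391.7 to 480.1 FPKM and 358.2 to 388.8 FPKM in the other two.

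The clusters named in this paragraph and the next were picked after their values were seen. In the mantle, 4 called clusters had 3 libraries above all 12 of the other tissues outside the intestine. How many of all clusters tested were separated in this way was not counted. One of the 4, i1_c39089/1/1940.2, was measured at 11.97, 18.8 and 20.3 FPKM in the mantle, against 1.15 to 8.28 FPKM in the 12 other libraries. Another, i1_c29168/2/1459, was measured at 26.1, 38.7 and 20.9 FPKM in the mantle, against 0 to 16.0 FPKM. Outside the intestine the mantle alone was above 0 for i2_c30762/1/2024, at 11.0, 5.65 and 0 FPKM, a difference that was not called.

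A set of 3 patterns recurred in more than 1 cluster. Clusters i1_c5361/1/1978, i1_c216459/1/1551.2 and i1_c5594/1/1231.1 were above 0 in all siphon and labial palp libraries and near 0 in the gill, mantle and foot muscle. The last of them was measured at 3.32, 3.60 and 0.81 FPKM in the siphon and 4.36, 2.66 and 6.17 FPKM in the labial palp, against 0 FPKM in all mantle and foot muscle libraries and at most 0.40 FPKM in the gill. These were the only 3 of the 150 called in both siphon and labial palp, a pair of calls made for 26 of all 29787 clusters. Under the least favourable alternative their siphon adjusted p was 0.0756, 0.134 and 0.054, in the order named. Whether the 3 are separate transcripts was not tested. In the second pattern the gill and labial palp both stood above the other 3 tissues. Calls in both were made for 3 of the 150, against 781 of all 29787 clusters, so not more often than in the background. Cluster i2_c4207/2/2508.1 was measured at 6.42, 7.13 and 5.66 FPKM in the gill and 7.37, 7.74 and 8.11 FPKM in the labial palp, against 0 to 1.59 FPKM in the other 9, so every labial palp library was above every gill library by a small margin. In the third the labial palp mean was further above that of the gill, and the other 3 tissues were lower still. Cluster i2_c18731/1/2989.1 was measured at 24.1, 66.4 and 59.0 FPKM in the labial palp and 5.16, 17.5 and 21.5 FPKM in the gill, against 2.05 to 12.5 FPKM in the rest. Clusters i2_c40671/1/2726.1 and i3_c21666/1/3698.2 followed it library by library in the labial palp, the first at 11.9, 33.4 and 25.2 FPKM and the second at 9.45, 33.6 and 24.9 FPKM. Their means were also alike in the intestine (362.1 and 353.4 FPKM), gill (10.8 and 13.1), mantle (4.65 and 4.73) and foot muscle (3.21 and 3.40). In the siphon they were 0.48 and 1.07 FPKM. Whether these are separate transcripts was not tested. A siphon level alone was called for i1_c25773/9/1498.1, at 1.30, 1.13 and 1.02 FPKM against 0 in the other 12 libraries.

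Of the calls in 1 tissue, those with an adjusted p under 0.05 under every alternative run numbered 4 of 11 in the labial palp, 2 of 8 in the foot muscle, 1 of 9 in the mantle, 1 of 5 in the gill and 0 of 8 in the siphon. Of the 33 clusters called among the 5 tissues, 17 were called under every alternative. These numbers were not counted over all clusters tested, so their usual share is not known.

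**Figure D4:**
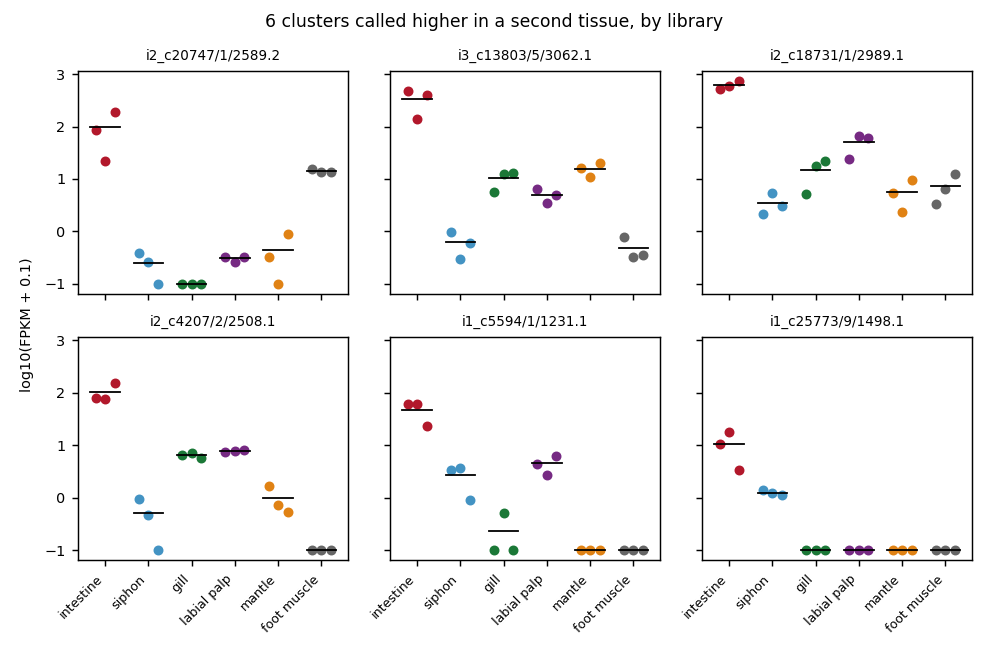
Log10(FPKM + 0.1) of 6 clusters called higher in a tissue other than the intestine, with 1 point per library, the intestine at the left of each panel and a black line at each tissue mean. From the top left they show a second level in the foot muscle (13.3 to 15.4 FPKM), mantle and gill, labial palp, gill with labial palp, siphon with labial palp, and siphon (1.02 to 1.30 FPKM), and points at -1 are libraries at 0.

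To see how far the intestine contrast held in libraries that had no part in choosing, the rule was applied to the libraries of 2 replicate numbers, and the 150 clusters so chosen were read in the 6 libraries of the third number. With replicate 1 held out, the held-out intestine library was at least 4 times the highest of the 5 other held-out libraries in 124 of 150 clusters (82.7%), against 1.39% of all clusters. With replicate 2 held out it was so in 129 (86.0%), against 1.84% of all clusters, and with replicate 3 held out in 119 (79.3%), against 1.63%. The median ratios in the held-out libraries were 11.6, 12.1 and 12.6, and 130, 132 and 128 of the chosen clusters were among the 150 described here. The failures were often complete. The held-out intestine library was at 0 for 9 clusters with replicate 1 held out, 6 with replicate 2 and 11 with replicate 3. Cluster i1_c217790/1/1360 was at 0 FPKM in the first intestine library and at 511.5 and 619.6 FPKM in the others. Cluster i4_c3688/1/4305 was at 0 FPKM in the second, beside 479.6 and 163.5 FPKM. In some of these clusters the 0 was shared by same-numbered libraries of other tissues. Cluster i1_c40583/1/1285.1 was at 0 in the first library of every tissue but the mantle (8.80 FPKM). Cluster i1_c7569/2/1463 was at 0 in the second library of every tissue but the mantle (47.2 FPKM). How many clusters had such a shared 0 was not counted. Such clusters, picked here after their values were seen, are missing from the 150 because the rule asked for 1 FPKM in every intestine library.

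Within the intestine the 150 clusters varied between libraries by a factor that had a median of 2.26 from lowest to highest, against 2.43 for the 24206 clusters with an intestine mean of at least 1 FPKM. It was 4 or more in 26 clusters (17.3%), against 35.0% of that background, in which a minimum in every library had not been asked for. The third intestine library was the highest for 75 clusters (50%, against 28.2% of the background), the second for 47 (31.3%, against 30.6%) and the first for 28 (18.7%, against 41.2%). The widest spread was that of i1_c129627/4/1985.2, at 36.3, 374.5 and 864.4 FPKM. Its mantle libraries were at 12.9, 23.04 and 23.9 FPKM, so that the lowest intestine library was only 1.52 times the highest mantle library. Cluster i1_c4432/4/1623.1 was measured at 22.1, 6.80 and 135.2 FPKM in the intestine, and i1_c29168/2/1459 at 361.8, 64.4 and 866.0 FPKM. At the other end i1_c95605/1/1366 was measured at 88.7, 83.7 and 89.2 FPKM, and i1_c37040/2/1464.1 at 32.9, 31.9 and 35.01 FPKM.

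Outside the intestine, a shift that libraries of the same replicate number shared across the 5 tissues was called for 4 of the 150 clusters (2.67%), against 7.01% of all clusters tested (edgeR quasi-likelihood test, Benjamini-Hochberg adjustment). The rule asked for a minimum in every intestine library, which left out clusters at 0 in 1 replicate number. A share below the background is therefore not independent of the choice. With single libraries left out the count was between 0 and 8, while the share of all clusters moved between 1.11% and 16.9%. By correlation the mantle libraries did not follow the replicate numbers of the other tissues (at most 0.0419 in same-numbered pairs), although this test included them. Without the 3 mantle libraries the count was 12 of 148 (8.11%), against 26.3% of all clusters. The smallest adjusted p, 0.0166, was that of i1_c71615/1/1355. Its second libraries were the lowest in all 5 tissues, for example 2.17 FPKM in the labial palp beside 6.65 and 4.84 FPKM, whereas its intestine libraries were at 50.9, 41.2 and 22.4 FPKM. For i6_c829/1/6429 the second libraries were the highest in all 5 tissues (edgeR adjusted p = 0.0331) and also in the intestine, at 47.0 FPKM beside 17.9 and 29.9 FPKM. For i1_c8361/1/1889 the first libraries were the lowest in all 5 tissues (edgeR adjusted p = 0.0338) and in the intestine, at 60.2 FPKM beside 87.0 and 102.7 FPKM. Under the least favourable alternative the adjusted p was 0.0601, 0.0998 and 0.107 for these 3 clusters, in the order given.

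Of the 150 identifiers, 101 (67.3%) carried a suffix, against 42.7% of all clusters and 40.9% of those with an intestine mean of at least 1 FPKM. In clusters without a suffix the length in the identifier exceeded the effective length by a median of 242 bases, and in those with a suffix by 1499 bases, so the suffixed entries are shorter pieces of a long-read cluster. The effective length of the 140 clusters for which it could be recovered (at least 100 reads in a library) was between 276 and 4671 bases with a median of 1024, against 1516 for 19250 clusters of the background. By the length of the whole long-read cluster the difference was smaller, since 36.0% of the 150 fell in the class of 1000 to 2036 bases and 42.0% in that of 2000 to 3043, against 40.3% and 33.4% of the background.

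The 150 clusters came from 138 long-read clusters, of which 33 had more than 1 piece in the table. In 10 of these all pieces were among the 150 (22 pieces), and the other 23 had 1 piece among them and 1 outside. Reads that match more than 1 piece or a similar isoform were divided by the authors' estimation, so the level of a single piece is less certain than that of its long-read cluster.

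A pair of long-read clusters had 3 pieces each among the 150. The pieces of i3_c6483/2/3581 all had the siphon second and the third intestine library highest. Piece i3_c6483/2/3581.1 was described above, and i3_c6483/2/3581.2 was measured at 104.2, 67.3 and 178.1 FPKM in the intestine, against 1.55, 2.32 and 1.12 FPKM in the siphon. Piece i3_c6483/2/3581.3 was measured at 126.1, 125.5 and 229.2 FPKM in the intestine, against 3.67, 5.79 and 0.71 FPKM in the siphon. For the last piece the siphon was called above the mean of the other 4 tissues, by 3.91 log2 units (SE 0.81, edgeR adjusted p = 0.010), and the foot muscle by 2.88 units (SE 0.82, adjusted p = 0.0402). The adjusted p rose to 0.0884 for the siphon and 0.459 for the foot muscle under the least favourable alternative.

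The pieces of i2_c86666/1/2735 were less uniform. Piece i2_c86666/1/2735.1 was measured at 51.1, 58.5 and 48.1 FPKM in the intestine, against 5.72, 6.40 and 3.74 FPKM in the labial palp and 3.80, 3.72 and 4.28 FPKM in the foot muscle. Piece i2_c86666/1/2735.2 was measured at 52.7, 46.3 and 37.6 FPKM in the intestine, against 5.16, 6.48 and 6.19 FPKM in the labial palp and 5.26, 5.12 and 2.97 FPKM in the foot muscle. In both, the 3 intestine libraries stayed close together and the gill was lowest, at 0.52 to 1.23 FPKM. The foot muscle was called above the mean of the other 4 for both, by 1.62 log2 units (SE 0.31, edgeR adjusted p = 0.00438) and by 1.87 units (SE 0.34, adjusted p = 0.00351). Under the least favourable alternative the adjusted p was 0.0655 for the first and 0.0452 for the second. By mean FPKM the labial palp was the higher of these 2 tissues, with 5.29 FPKM beside 3.93 FPKM in the foot muscle for the first piece and 5.94 beside 4.45 FPKM for the second. The labial palp was not called for either in edgeR (0.76 log2 units, adjusted p = 0.191, and 0.99 units, adjusted p = 0.118). On log2 FPKM, limma called it for both (1.33 units, adjusted p = 0.011, and 1.60 units, adjusted p = 0.00743), and DESeq2 called it for the second (0.98 units, adjusted p = 0.0375). Whether the labial palp was called therefore depended on the tool and scale. For the second piece the foot muscle was called under every alternative. Piece i2_c86666/1/2735.3 was lower in the intestine, at 16.2, 26.5 and 23.2 FPKM, and at 0 in all labial palp libraries, beside 3.23, 1.62 and 0 FPKM in the mantle.

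The 23 pieces outside the 150 were left out because of their own levels, and shared reads were divided between them and their companions, so their values are a description and not independent of the choice. Of these, 2 were at 0 in all 18 libraries, and 14 of the other 21 (66.7%) had their highest tissue mean in the intestine, against 23.9% of the 30741 clusters above 0 somewhere. Their median ratio of intestine to the highest other tissue was 2.31, against 0.66 for those clusters, and 4 of them met the rule but ranked below 150. A ratio under 1 was found for 7 pieces, of which 4 never passed 2.02 FPKM in any library. The most abundant of the 7 was far from its companion in tissue pattern. Piece i2_c5479/4/2385.1, among the 150, was measured at 395.3, 111.5 and 527.5 FPKM in the intestine, against 16.2, 14.8 and 41.1 FPKM in the siphon. Its companion i2_c5479/4/2385.2 was at 0, 0.18 and 0 FPKM in the intestine, against 92.0, 0 and 82.2 FPKM in the siphon and 56.0, 0.98 and 17.0 FPKM in the foot muscle. In another pair both pieces were highest in the intestine. Piece i3_c24408/1/3257.1 was measured at 65.4, 81.4 and 42.2 FPKM in the intestine, and its companion i3_c24408/1/3257.2 at 186.3, 105.2 and 0 FPKM. The companion was at 0 also in the third labial palp library, beside 17.95 and 10.9 FPKM in the other two, and so failed the minimum although its ratio was 8.58. These pairs were picked after their values were seen.

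**Figure D5:**
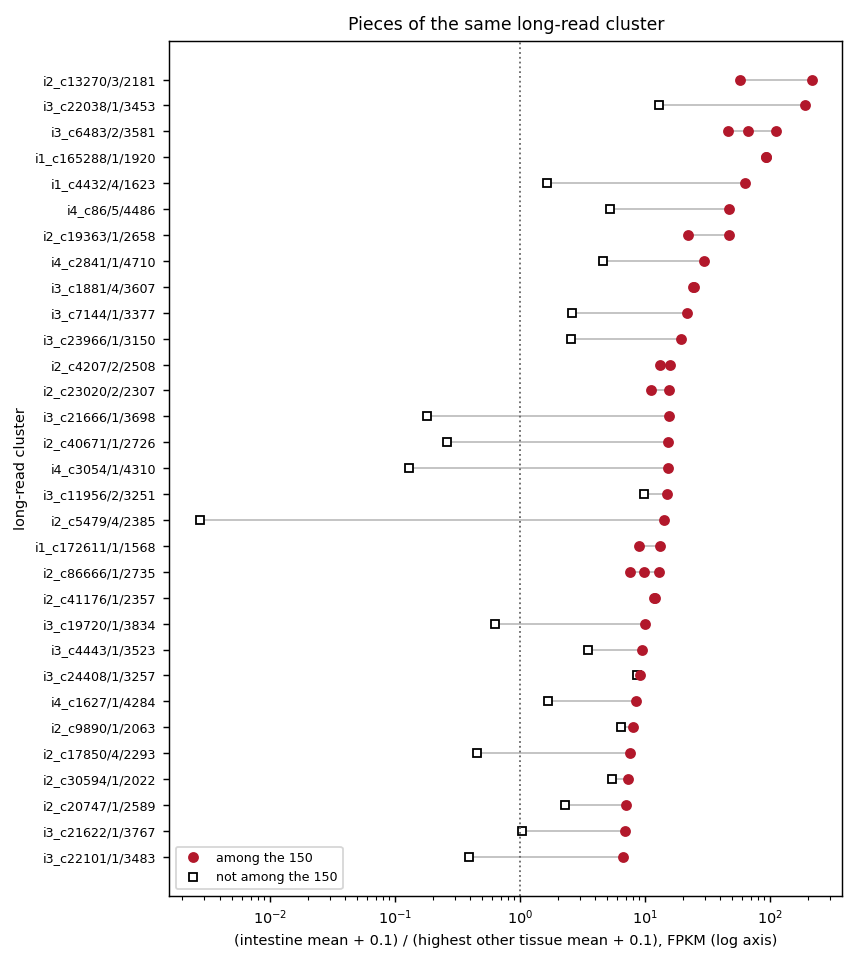
Ratio of the intestine mean to the highest other tissue mean, each with 0.1 FPKM added (log axis), for the pieces of long-read clusters with more than 1 piece above 0, with red circles for pieces among the 150 and open squares for the others. Circles lie at 6.69 or higher by the rule, 14 of 21 squares lie above the dotted line at 1, and the square at the far left is i2_c5479/4/2385.2, which was highest in the siphon.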

How the data were processed

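RNA-seq libraries of 6 tissues (18 libraries, 3 per tissue) were analysed, grouped by the tissue and replicate number in the sample titles. Per library, 32250 isoform clusters were deposited with RSEM expected counts (reads shared out by estimation) and with FPKM values that the authors had scaled for transcript length and depth. The submitters' processing notes name RSEM, Bowtie2 and DESeq 1.10.1, without a role or order. A kit for Illumina libraries is named in the labels, whereas the design text speaks of a Pacific Biosciences machine. Total counts per library set the precision, and library totals are given in the results.

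The 150 clusters and all tests were chosen with earlier results of these data known. The rule, with its pseudocount of 0.1, was applied to FPKM. Counts were rounded to whole numbers, and clusters with at least 10 reads over the 15 libraries outside the intestine were tested with edgeR 4.0.16 (R 4.3.3, TMM normalization, robust quasi-likelihood fit, Benjamini-Hochberg adjustment, threshold 0.05), among 5 tissues, for each against the mean of the other 4, and for replicate number with tissue in the fit. All 15 libraries shared 1 estimate of the spread. The standard error of a difference was derived from its F statistic. The edgeR script was tested on simulated data. Alternatives were DESeq2 1.42.0, limma 3.58.1 with trend on log2(FPKM + 0.1), DESeq2 size factors, other filters on reads, a replicate block, other settings of the rule and leaving out each library.

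Clusters were named by rule: the 10 highest ratios, the 10 highest intestine means, the 2 on either side of rank 150, 5 with the smallest adjusted p among the 5 tissues, 3 with the smallest for replicate number, the 3 widest and 2 narrowest intestine spreads, and the 2 largest sets of pieces. Marker lists were not scored, since no cluster was paired with a gene name.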

Additional observations from a re-analysis of the deposited data

How the results depend on the processing

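The choice of the 150 clusters moved little with its settings. Between 138 and 150 were taken again with a pseudocount of 1 or 0.01, or with the tissue median, at least 143 with another minimum, and 135 from TMM-scaled read counts (CPM). The number that met the rule was 651 at a ratio of at least 2 and 109 at a ratio of at least 10. Leaving out 1 library gave 264 to 334 that met the rule and 130 to 150 of the 150 taken again, fewest without the third intestine library. With a pseudocount of 1 the ratio was 246.7 for i2_c36716/1/2467.1, 50.8 for i3_c22038/1/3453.1 (262 with 0.01), 48.6 for i1_c99538/1/1714, 60.2 for i1_c165288/1/1920.1, 107.8 for i2_c13270/3/2181.3.1 and 68.4 for i3_c6483/2/3581.1. The counts of called clusters outside the intestine depended on the tool, and the cause was not tested. Shares in parentheses are those of all clusters in the same test. DESeq2 called 51 of 139 with an adjusted p among the 5 tissues (33.6%), 12 of 139 higher in the gill (8.97%), 21 of 145 in the labial palp (9.19%) and 19 of 132 for replicate number (28.8%). Limma called 51 of the 150 among the 5 tissues (33.4%), 5 in the siphon (3.09%), 16 in the gill (13.1%), 31 in the labial palp (16.9%), 4 in the foot muscle (3.85%) and 8 for replicate number (17.8%). Leaving out 1 library gave 21 to 30 among the 5 tissues (14.3% to 16.7%), 2 to 9 in the siphon (3.31% to 4.91%), 1 to 9 in the gill (2.80% to 5.14%), 5 to 16 in the labial palp (3.44% to 5.77%), 3 to 10 in the mantle (1.36% to 2.70%), 4 to 9 in the foot muscle (4.97% to 7.46%) and 0 to 8 for replicate number (1.11% to 16.9%), where at 0 between 11 and 18 had an unadjusted p under the threshold. Without the 3 mantle libraries 12 were called for replicate number (26.3%). For i2_c8798/1/2094 the mantle difference was 1.71 log2 units without the third mantle library.

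The replicate numbers were checked by the correlation of deviations from the tissue means over 26222 clusters. It was between 0.247 and 0.819 in 30 same-numbered pairs without the mantle. In 15 pairs with a mantle library it was at most 0.0419, so the numbers were not used as a pairing in the main tests. With the replicate block, 10 clusters were called in the gill (6.67%, against 6.48% of all clusters), 18 in the labial palp (12%, against 7.33%) and 15 in the mantle (10%, against 5.64%).

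Depth limits the low levels outside the intestine, where the second tissue of 3 clusters rested on fewer than 10 estimated reads. The spread among the pools was wide (common biological coefficient of variation 1.03), and a cluster without a call is not shown to be equal among tissues.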
